A study of Rattus norvegicus with 4 samples.

Results

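The Notch pathway was described here through 10 genes of the rat insulinoma line INS-1 832/3, an insulin-secreting model of the beta cell: the receptors Notch1, Notch2 and Notch3, the ligands Jag1, Jag2, Dll1 and Dll4, the DNA-binding partner Rbpj and the target genes Hes1 and Hey1. They were chosen by symbol from the 23360 gene symbols of the files, and all 10 were listed. Polyadenylated RNA was sequenced from 4 cultures of this line, 2 in standard 2D monolayer and 2 that were 3D-bioprinted in GelXA LAMININK 411, a gelatin-based hydrogel with laminin-411. All were kept for 5 days in the same RPMI-1640 medium with serum and Geneticin, were at passage 3, and carried the human insulin gene of the line. The comparison asked how culture in the bioprinted hydrogel differs from culture on plastic. Printing, hydrogel, laminin and geometry came together in the 3D group and cannot be told apart, and a tumour line stands in for the beta cells of an islet.

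Notch signaling passes between touching cells. A ligand of the Jagged or Delta type on one cell binds a Notch receptor on its neighbour, the receptor is cut by ADAM10 and then by gamma-secretase, and the freed intracellular part joins the DNA-binding protein RBPJ and Mastermind coactivators to switch on repressors of the HES and HEY families. In the developing pancreas the pathway keeps progenitors from becoming endocrine cells, with HES1 acting as a repressor of Neurog3, the gene that starts the endocrine program.

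Of the 10 genes, Hes1 and Jag2 rose in 3D culture, Rbpj did not pass the test, and the other 7 lay below the expression filter of a mean of 1 TPM (a level per transcript length that sums to 1000000 in each culture). The genes that rose are 66.7% of the 3 tested. Of all genes tested, 38.0% passed the test in either direction and 18.5% were higher in 3D culture. The promoters of the genes that rose are shown here for their letters, and a shared cause of the rise was not tested. Both come from the RefSeq annotation of the rat assembly GRCr8 and span the 250 bases before the transcription start. They are printed 5′ to 3′ in the direction of transcription, which runs along the minus strand of the assembly for both. Capitals mark GTGGGAA, the letters of a common RBPJ recognition sequence. The Hes1 promoter lies at chr11:84213046-84213295 and that of Jag2 at chr6:137826739-137826988. Jag2 has a further promoter entry, at chr6:137826337-137826586, which is not printed.
Hes1 promoter: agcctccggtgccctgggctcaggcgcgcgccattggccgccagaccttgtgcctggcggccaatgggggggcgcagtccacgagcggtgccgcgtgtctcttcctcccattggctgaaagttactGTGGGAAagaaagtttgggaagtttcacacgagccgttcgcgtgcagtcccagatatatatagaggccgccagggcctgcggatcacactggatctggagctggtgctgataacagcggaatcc
Jag2 promoter: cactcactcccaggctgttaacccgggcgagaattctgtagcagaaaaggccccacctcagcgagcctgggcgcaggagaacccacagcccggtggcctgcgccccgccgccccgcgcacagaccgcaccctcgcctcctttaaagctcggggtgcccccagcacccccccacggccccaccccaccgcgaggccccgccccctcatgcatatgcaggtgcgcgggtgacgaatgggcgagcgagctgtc

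GTGGGAA was searched on both strands of the promoters in RefSeq, of which 8 of the 10 genes had an entry, Dll4 and Hey1 having none. It stood at bases 124 to 118 before the start of Hes1, and on the other strand at bases 185 to 179 before the start of Dll1. It was not in the windows of Jag1, Jag2, Notch1, Notch2, Notch3 or Rbpj. Of 33469 rat promoter entries of the same length, 5.27% held it on either strand. CACNAG, the letters of the N-box that HES proteins are known to bind, stood 4 times in the Hes1 window, at bases 204 to 199, 171 to 166, 97 to 92 and 24 to 19 before the start, none of them overlapping GTGGGAA. The Notch1 window also held it 4 times and that of Notch3 once, while the other 5 of the 8 genes, Jag2 among them, had none. It was found in 37.2% of all promoter entries. A match of letters describes the sequence and does not show that a factor was bound.

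Hes1, the HES-family repressor that is the best-known direct target of Notch, showed the largest difference of the genes tested from the list. Its level was 2.64 and 2.91 TPM in the monolayer cultures and 12.5 and 9.89 TPM in the 3D cultures. Both 3D cultures thus lay far above both monolayer cultures, and 3D culture 1 was the higher of the 3D pair. The means were 2.78 ± 0.190 TPM (SD, n = 2) and 11.2 ± 1.82 TPM (SD, n = 2), a ratio of 4.02. On the log2(TPM + 1) scale used for testing, the difference was 1.64 (standard error 0.13, 95% interval 1.31 to 1.98, adjusted p = 0.0037 in limma). Ranked by this difference over all 11960 genes tested, Hes1 was number 42 from the top. Across all genes tested 38.0% passed the threshold of an adjusted p below 0.05, 18.5% higher and 19.5% lower in 3D culture, so a call by itself is common in this comparison. Groups that did not overlap were common too, in 75.5% of all genes tested and in 2 of the 3 tested from the list. In bulk RNA, more cells that express a gene and more RNA of it per cell cannot be told apart. No exact permutation of 2 against 2 cultures reaches a two-sided p under 0.33 for 1 gene alone, so each call leans on limma's pooled estimate of the spread.

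Hey1, the target gene of the HEY family on the list, did not show the pattern of Hes1. It was listed at 0.454 and 0.297 TPM in monolayer and at 0.310 and 0.213 TPM in 3D culture. The groups overlapped in TPM as deposited, while after scaling between cultures both 3D values lay below both monolayer values, and all values were below the filter. Its relatives Hey2 and Heyl did not exceed 0.11 TPM in any culture.

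**Figure D1:**
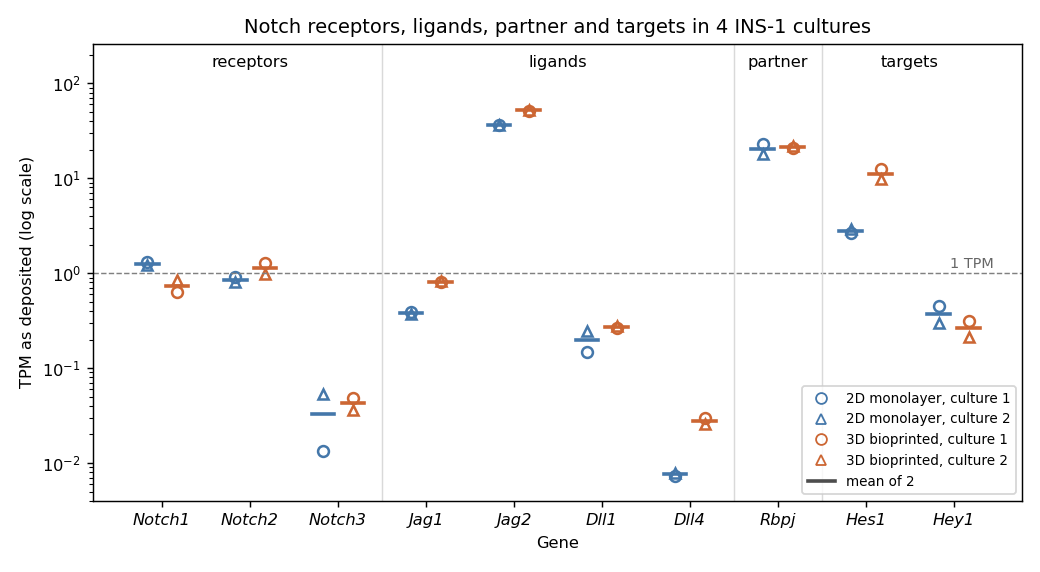
Level of each of the 10 genes in TPM as deposited (log scale) in the 2 monolayer cultures (blue) and the 2 3D-bioprinted cultures (orange), with circles for culture 1, triangles for culture 2 and a bar at the mean of each group. Hes1 and Jag2 lie above 1 TPM with both 3D cultures above both monolayer cultures, while Rbpj overlaps between the groups and the other 7 genes lie near or below the dashed line at 1 TPM.

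Jag2, a ligand of the Jagged type, was the most abundant of the 10 genes in both groups. It was at 36.7 and 36.2 TPM in monolayer and at 51.3 and 52.6 TPM in 3D culture. Cultures of a group lay close together, and the groups were well apart. The group means were 36.4 ± 0.338 TPM (SD, n = 2) and, in 3D culture, 52.0 ± 0.907 TPM (SD, n = 2), a ratio of 1.43. The log2 difference was 0.46 (standard error 0.056, 95% interval 0.32 to 0.60, adjusted p = 0.0056 in limma). Without 3D culture 1 the adjusted p of Jag2 was 0.0673, and without 3D culture 2 it was 0.0513. Leaving out either of these cultures also lowered the calls over all genes, from 38.0% to 1.14% and 8.71% of the genes tested.

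The other ligands were present at a small part of the level of Jag2. Jag1, the second Jagged ligand, was at 0.388 and 0.372 TPM in monolayer and at 0.812 and 0.822 TPM in 3D culture. Its 3D values were 2.15 times its monolayer values on average, with little spread within either group, although all 4 lay below the filter. Dll1, a Delta-like ligand of progenitor cells, was at 0.146 and 0.249 TPM in monolayer and at 0.262 and 0.279 TPM in 3D culture, so that the higher monolayer value came close to the lower 3D value. Dll4, the Delta-like ligand best known from sprouting endothelium, was at 0.00726 and 0.00792 TPM in monolayer and at 0.0298 and 0.0256 TPM in 3D culture, levels whose read support TPM do not show.

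Jag2 took between 97.4% and 98.3% of the summed TPM of the 5 classical ligands (Jag1, Jag2, Dll1, Dll3 and Dll4) in each culture. That sum was 37.3 and 36.9 TPM in monolayer against 52.7 and 53.9 TPM in 3D culture. The ratio of Jag2 to Jag1 was 94.5 and 97.3 in monolayer and 63.2 and 64.0 in 3D culture, so it was lower in both 3D cultures while both genes had higher values there.

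The receptors were at the lower end of the measured levels, and their order differed between the groups. Notch1 was at 1.299 and 1.21 TPM in monolayer and at 0.632 and 0.849 TPM in 3D culture. Both 3D values were below both monolayer values. Groups without overlap, in either direction, were found in 75.5% of all genes tested. Notch2 was at 0.911 and 0.803 TPM in monolayer and at 1.29 and 0.977 TPM in 3D culture. Here both 3D values were above both monolayer values, with 3D culture 2 close to monolayer culture 1. Notch3, a receptor known mainly from vascular smooth muscle, was at 0.0133 and 0.0532 TPM in monolayer and at 0.0485 and 0.0365 TPM in 3D culture, and its groups overlapped.

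Notch1 and Notch2 had means over the 4 cultures of 0.998 and 0.994 TPM and so fell just short of the filter. With no filter, where 21.4% of 16749 genes passed, Notch1 had a log2 difference of -0.40 (adjusted p = 0.0431 in limma) and Jag1 one of 0.38 (adjusted p = 0.0212 in limma), while Notch2 had one of 0.18 (adjusted p = 0.266 in limma). With a filter of 0.5 TPM, chosen after the data were seen and passed by 6 of the 10 genes, the adjusted p was 0.0606 for Notch1, 0.0664 for Jag1 and 0.343 for Notch2. The difference of Notch1 and that of Jag1 thus passed or missed the threshold with the choice of filter, and neither is counted as changed. The difference of Notch2 was 0.066 without 3D culture 1 and 0.28 without 3D culture 2.

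The ratio of Notch2 to Notch1 was 0.701 and 0.661 in the monolayer cultures and 2.03 and 1.15 in the 3D cultures. By listed TPM, Notch1 was therefore the more abundant receptor in both monolayer cultures and Notch2 in both 3D cultures. Both genes lay below the filter, where precision is unknown, and the change of order was not tested. Summed over the 4 receptors, with Notch4 at 0.488 and 0.450 TPM in monolayer against 0.674 and 0.580 TPM in 3D culture, the level was 2.71 and 2.52 TPM in monolayer against 2.64 and 2.44 TPM in 3D culture. The summed receptor level overlapped between the groups. The share of Notch1 in it was 47.9% and 48.2% in monolayer against 23.9% and 34.8% in 3D culture, and the share of Notch2 was 33.6% and 31.8% against 48.7% and 40.0%. Jag2 exceeded the summed receptors 13.5 and 14.4 times in monolayer and 19.4 and 21.5 times in 3D culture.

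**Figure D2:**
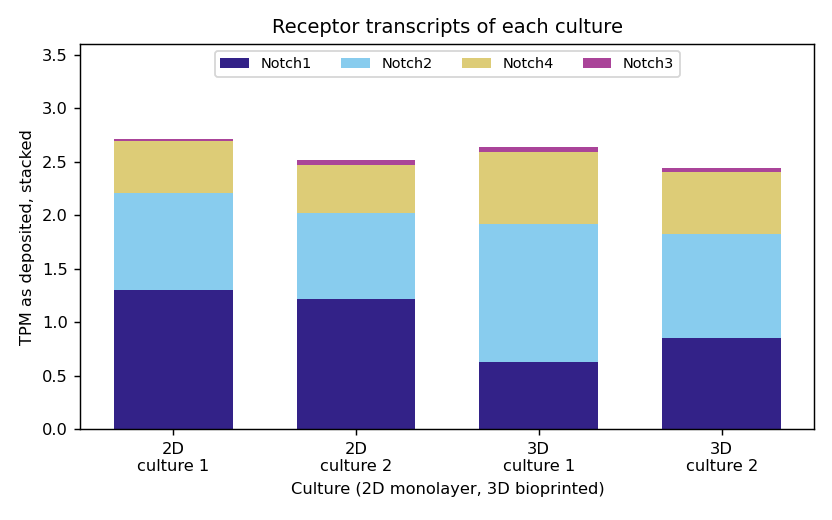
Stacked levels of the 4 Notch receptors in TPM as deposited, 1 bar for each culture. The bars have nearly the same height, between 2.44 and 2.71 TPM, while the Notch1 part (dark blue) is smaller and the Notch2 part (light blue) larger in both 3D-bioprinted cultures.

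Rbpj, the DNA-binding protein that all 4 receptors act through, was at 22.8 and 17.9 TPM in monolayer and at 20.9 and 21.6 TPM in 3D culture. Both 3D values lay between the monolayer values. The means were 20.3 ± 3.50 TPM (SD, n = 2) and 21.3 ± 0.488 TPM (SD, n = 2), with a log2 difference of 0.031 (standard error 0.099, 95% interval -0.22 to 0.28, adjusted p = 0.820 in limma). Without monolayer culture 2 the difference was -0.10 (adjusted p = 0.265 in limma), so its sign depended on that culture.

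Ordered by level within the monolayer cultures, Jag2 was followed by Rbpj, Hes1, Notch1, Notch2, Jag1, Hey1, Dll1, Notch3 and Dll4, and among these neighbours Jag1 and Hey1 overlapped. In the 3D cultures Jag2, Rbpj and Hes1 came first again, followed by Notch2, Jag1, Notch1, Dll1, Hey1, Notch3 and Dll4. There Jag1 overlapped with Notch1, and Dll1 with Hey1. The gap between Rbpj and Hes1 was narrower in 3D culture, while the 3 genes that passed the filter kept their order.

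Of the 10 genes, 9 were listed with a single transcript, so the gene values are those of ENSRNOT00000002346.7 for Hes1, of ENSRNOT00000019213.6 for Jag2, of ENSRNOT00000071929.2 for Rbpj and of ENSRNOT00000026212.7 for Notch1. Notch2 had 2 transcripts, and ENSRNOT00000025718.4 carried nearly all of its TPM. Tested as single transcripts, of which 23.5% of 15020 passed, Hes1 had a log2 difference of 1.63 (adjusted p = 0.0159 in limma) and Jag2 one of 0.44 (adjusted p = 0.0180 in limma). Neither transcript was called without monolayer culture 2 or without either of the 3D cultures.

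The wider pathway was described through 71 further genes, of which 69 were listed in the files and 52 passed the filter. Of these 52, 14 rose and 9 fell in 3D culture, and 29 did not pass the test. Dtx1, among the 14 that rose, passed the filter only through its 3D values, and the shares given next include it. The 44.2% called compares with 38.0% of all genes tested, and the median log2 difference of 0.028 with -0.0031. In 73.1% of the 52 the groups did not overlap, against 75.5% of all genes tested. On TPM that were not scaled between cultures, 13 rose and 3 fell. The balance over all genes also moved upward without scaling, to 2258 higher and 1812 lower, with 34% of genes called. With scaling it was 2213 higher and 2328 lower. Without 3D culture 1, none of the 52 passed, with 13 below an unadjusted p of 0.05 in limma, and without 3D culture 2 the number was 1. Each of the 23 genes called lost its call under between 2 and 10 of its 11 to 13 alternatives, Crebbp and Nedd4 under 6 of 13 and Tle1 under 6 of 12.

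Among the HES and HEY repressors, Hes6 was the most abundant, a family member that opposes HES1 and is known from differentiating neural and endocrine cells. It was at 40.8 and 43.6 TPM in monolayer and at 50.01 and 47.1 TPM in 3D culture, a log2 difference of 0.16 (adjusted p = 0.164 in limma). The level of Hes6 was 15.4 and 15.0 times that of Hes1 in monolayer and 4.01 and 4.77 times in 3D culture. Of the summed TPM of 7 HES and HEY genes (Hes1, Hes5, Hes6, Hes7, Hey1, Hey2 and Heyl), Hes1 made up 5.88% and 6.04% in monolayer and 19.7% and 16.9% in 3D culture. Hes2, Hes3 and Hes5 were listed at 0 in all cultures, and Hes7 overlapped between the groups at 0.425 to 1.29 TPM.

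Of the remaining targets and feedback genes, Dtx1, a Notch-induced regulator of receptor traffic, was at 0.651 and 0.606 TPM in monolayer and at 2.28 and 1.396 TPM in 3D culture (log2 difference 0.76, adjusted p = 0.0278 in limma). It passed the filter only through its 3D values. Nrarp, a feedback inhibitor that Notch induces, lay below the filter at 0.722 and 0.847 TPM in monolayer and at 0.801 and 0.753 TPM in 3D culture, with overlapping groups.

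Further ligands lay outside the 10 genes. Dner, a non-classical transmembrane Notch ligand of neurons, rose from 2.29 and 2.35 TPM to 3.74 and 5.21 TPM. Its log2 difference was 0.68 (adjusted p = 0.0201 in limma). Dll3 was below the filter at 0.105 and 0.115 TPM in monolayer and at 0.288 and 0.202 TPM in 3D culture. Dlk1 was listed at 0 throughout.

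The acetyltransferases that serve as coactivators did not move one way. Ep300 rose from 5.13 and 3.61 TPM to 8.34 and 9.74 TPM (log2 difference 0.88, adjusted p = 0.0098 in limma), and its paralogue Crebbp rose from 6.34 and 5.96 TPM to 7.85 and 7.79 TPM (log2 difference 0.26, adjusted p = 0.0412 in limma). Kat2a fell from 30.01 and 29.5 TPM to 24.7 and 26.3 TPM (log2 difference -0.26, adjusted p = 0.0248 in limma). Its paralogue Kat2b, listed in the files as AABR07066180.1, fell from 12.9 and 12.0 TPM to 8.64 and 10.8 TPM (log2 difference -0.37, adjusted p = 0.0408 in limma). The difference of Kat2b was -0.24 (adjusted p = 0.196 in limma) without 3D culture 1, and the gene was called under 6 of 13 alternatives. Maml1, the Mastermind coactivator that passed the filter, was at 4.94 and 4.43 TPM in monolayer and at 5.53 TPM in both 3D cultures, and did not pass (adjusted p = 0.169 in limma).

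Of the 8 genes of receptor cleavage considered, 2 rose and 1 fell, and the 37.5% called lies at the background of 38.0%. Adam10, the protease that makes the ligand-dependent cut, rose from 18.7 and 15.9 TPM to 23.5 and 27.3 TPM (log2 difference 0.49, adjusted p = 0.0137 in limma). Among the gamma-secretase subunits, Ncstn rose from 39.4 and 37.1 TPM to 45.1 and 46.5 TPM (log2 difference 0.21, adjusted p = 0.0302 in limma) and Aph1b fell from 15.3 and 15.0 TPM to 13.5 and 12.7 TPM (log2 difference -0.24, adjusted p = 0.0491 in limma). Aph1b was called under 3 of 13 alternatives. Its more abundant transcript was at -0.42 (adjusted p = 0.0291 in limma) and another at 0.10 (adjusted p = 0.589 in limma). The transcripts of Ncstn also differed in sign, the more abundant at 0.22 (adjusted p = 0.0490 in limma) and the other at -0.22 (adjusted p = 0.370 in limma). The catalytic subunit Psen2 did not pass (adjusted p = 0.314 in limma). Of the 4 glycosylation genes tested, Mfng, a fringe enzyme that modifies Notch and alters its choice of ligand, fell from 36.0 and 32.6 TPM to 29.0 and 29.3 TPM (log2 difference -0.27, adjusted p = 0.0202 in limma), and the others did not pass.

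Mib1, the ubiquitin ligase that activates ligands by triggering their uptake, was the gene that rose among 4 of that role. It was at 22.8 and 12.96 TPM in monolayer and at 33.4 and 33.8 TPM in 3D culture (log2 difference 0.88, adjusted p = 0.0280 in limma). The low value in monolayer culture 2 carried part of this difference, which was 0.53 (adjusted p = 0.0168 in limma) without that culture. Of the 9 genes tested that were listed under receptor turnover and inhibition, 4 rose and 2 fell (66.7% called, against 38.0% of all genes tested). The label is broad and does not mean that each of them inhibits Notch. Fbxw7, which marks the Notch intracellular part for degradation, rose from 24.1 and 16.0 TPM to 32.2 and 33.0 TPM (log2 difference 0.66, adjusted p = 0.0257 in limma), and without monolayer culture 2 by 0.41 (adjusted p = 0.0213 in limma).

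The ubiquitin ligase Dtx3 rose from 46.8 and 46.9 TPM to 60.9 and 62.5 TPM (log2 difference 0.35, adjusted p = 0.0101 in limma). Nedd4, another ubiquitin ligase, rose from 69.5 and 60.6 TPM to 77.6 and 77.9 TPM (log2 difference 0.21, adjusted p = 0.0456 in limma). Aak1, a kinase of endocytic adaptors, rose from 2.79 and 1.95 TPM to 3.77 and 3.70 TPM (log2 difference 0.47, adjusted p = 0.0423 in limma), and its difference without monolayer culture 2 was 0.31 (adjusted p = 0.107 in limma). In the other direction went an inhibitor and a ligase. Numbl, a relative of the Notch inhibitor Numb, fell from 27.4 and 27.8 TPM to 19.9 and 22.1 TPM (log2 difference -0.42, adjusted p = 0.0114 in limma). Its transcripts went opposite ways, the more abundant at -0.78 (adjusted p = 0.0300 in limma) and the other at 0.58 (adjusted p = 0.211 in limma). Dtx2 fell from 11.6 and 12.3 TPM to 8.37 and 10.0 TPM (log2 difference -0.39, adjusted p = 0.0338 in limma). Its transcripts also differed in sign, the more abundant at -0.67 (adjusted p = 0.0551 in limma) and the other at 0.50 (adjusted p = 0.144 in limma). Among the called genes with several transcripts, Dtx2, Dner, Fbxw7, Kdm5a, Nedd4, Tle1 and Tle2 had none that passed when tested singly. Aph1b, Dtx3, Mib1, Ncstn and Numbl each had a transcript that passed.

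Of 16 genes listed as corepressors of RBPJ or HES targets, 3 rose and 3 fell, again 37.5% called against the background of 38.0%. The Groucho family includes corepressors that HES1 recruits. In this family, Tle2 rose from 4.51 and 5.58 TPM to 8.38 and 8.97 TPM (log2 difference 0.64, adjusted p = 0.0144 in limma) and Tle3 from 1.79 and 2.07 TPM to 3.35 and 3.43 TPM (log2 difference 0.55, adjusted p = 0.0177 in limma). Tle1 fell from 5.11 and 5.23 TPM to 3.67 and 4.30 TPM (log2 difference -0.35, adjusted p = 0.0449 in limma). Tle5, the short family member and the most abundant of them, fell from 960 and 993 TPM to 823 and 841 TPM (log2 difference -0.27, adjusted p = 0.0278 in limma). The family thus held members that rose and members that fell. Kdm5a, a histone demethylase found with RBPJ, rose from 14.4 and 12.3 TPM to 18.9 and 20.6 TPM (log2 difference 0.49, adjusted p = 0.01002 in limma). The deacetylase Hdac1 fell from 186 and 181 TPM to 154 and 155 TPM (log2 difference -0.29, adjusted p = 0.0122 in limma).

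Genes of the endocrine program that Notch restrains during development were checked as well. Neurog3, the direct target of HES1 repression, was listed at 0 in all 4 cultures. Neurod1, a factor of mature beta cells, was at 70.2 and 55.8 TPM in monolayer and at 66.2 and 67.5 TPM in 3D culture and did not pass (adjusted p = 0.680 in limma), nor did Nkx2-2 (adjusted p = 0.945 in limma).

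**Figure D3:**
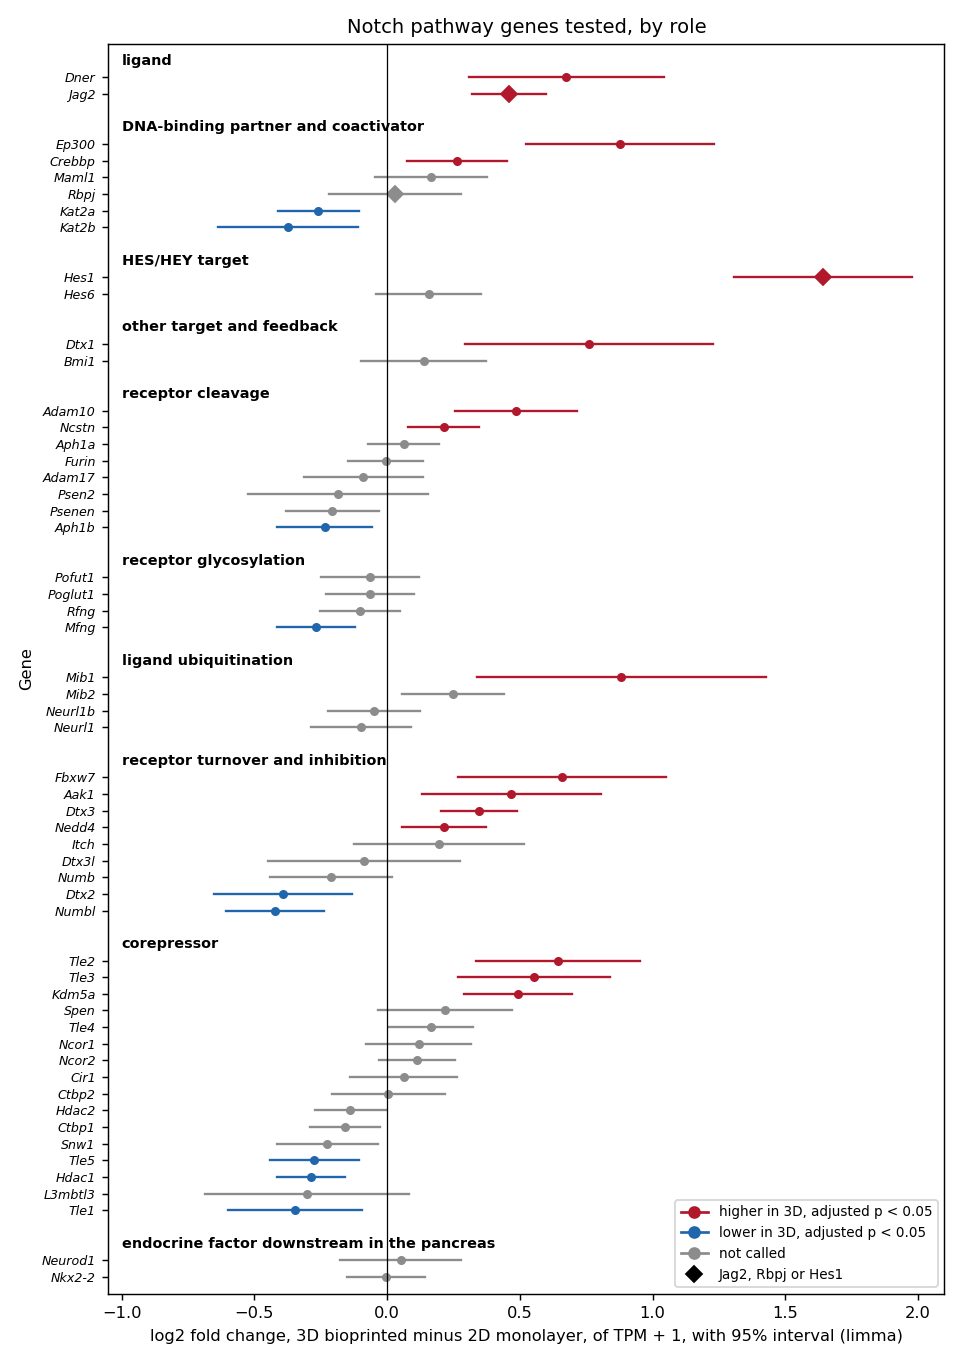
Log2 difference of TPM + 1, 3D bioprinted minus 2D monolayer, with its 95% interval from limma, for the 55 Notch genes that passed the filter, grouped by role; red marks genes that rose, blue genes that fell, grey genes not called, and diamonds mark Jag2, Rbpj and Hes1. Hes1 at 1.64 lies to the right of every other gene drawn, and most roles hold genes on both sides of 0. Dtx1 passed the filter only through its 3D values.

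**Figure D4:**
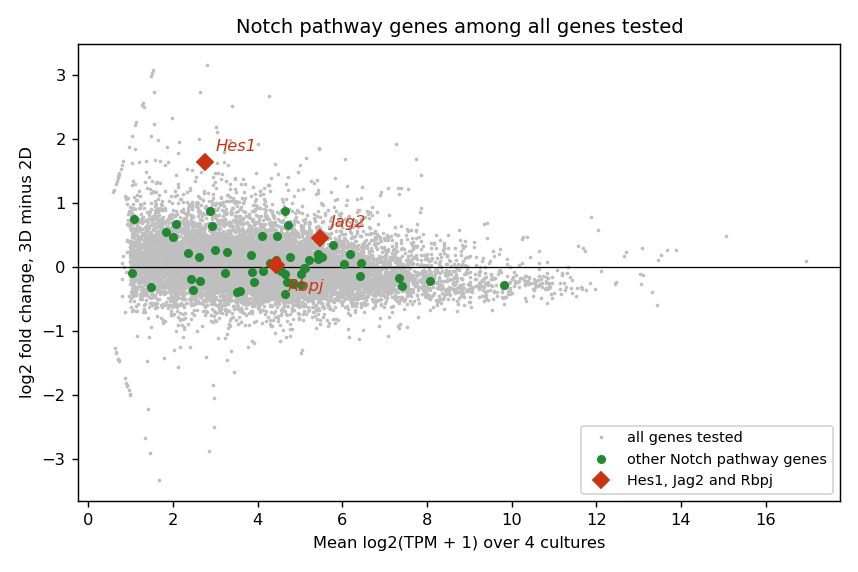
Mean log2(TPM + 1) over the 4 cultures against the log2 difference, 3D minus 2D, for the 11960 genes tested (grey), with the other Notch pathway genes in green and Jag2, Rbpj and Hes1 in red. Hes1 at 1.64 lies near the upper edge of the grey cloud at its level, and the green points lie between -0.42 and 0.88.

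The cultures were checked against marker genes. Insulin and other beta-cell markers (9 of 10 listed, all tested, 1 higher and 1 lower) summed to 139700 and 151500 TPM in monolayer and to 150200 and 161800 TPM in 3D culture, most of it Ins1, which did not pass (adjusted p = 0.680 in limma). Ins2, the second rat insulin gene, fell from 13237 and 13340 TPM to 8957 and 9326 TPM (log2 difference -0.58, adjusted p = 0.0095 in limma), and Slc2a2, which encodes the glucose transporter GLUT2, was the marker that rose. Endothelial cells, which use Notch strongly, have Cdh5, Tie1 and Emcn as markers, which were all listed at 0, and Tek did not exceed 0.0085 TPM. Kdr, which encodes a VEGF receptor of these cells, was at 0.965 and 1.00 TPM in monolayer and at 1.27 and 1.48 TPM in 3D culture and did not pass (adjusted p = 0.198 in limma). The summed endothelial list, 8 of 9 genes listed and mostly the junction and secreted proteins Esam and Egfl7, was 26.7 and 28.2 TPM in monolayer against 28.5 and 30.6 TPM in 3D culture, and none of its 3 tested genes passed in limma. The stromal markers Pdgfrb, Dcn and Lum and the duct markers Cftr and Spp1 were at 0, while the stromal Col1a1 and the duct keratin Krt19 did not exceed 0.0198 and 0.130 TPM. The stromal list (8 of 9 listed, none of 2 tested called) summed to 210.6 and 214.1 TPM in monolayer against 180.0 and 210.7 TPM in 3D culture, nearly all of it Thy1. The duct list (all 7 listed, its 1 tested gene not called) summed to 16.6 and 19.6 TPM in monolayer against 22.9 and 20.8 TPM in 3D culture, nearly all of it Krt7. Acinar genes (5 of 6 listed) summed to at most 0.289 TPM and immune genes (all 4 listed) to at most 1.47 TPM. Gcg, which encodes glucagon and made up nearly all of the list for other islet endocrine cells, was at 41.9 and 73.8 TPM in monolayer and at 124 and 155 TPM in 3D culture (log2 difference 1.26, adjusted p = 0.0217 in limma). It moved in the same direction as Hes1 and Jag2, and its part in their differences was not tested.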

How the data were processed

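RNA of 4 INS-1 cultures was sequenced as 75-bp single-end reads of stranded libraries. Per the labels and methods, the authors checked the reads with FastQC 0.11.8, quantified transcripts with Salmon 1.2 against rat (rn4) plus the human insulin gene, and deposited TPM for 31201 transcripts. The deposited values carry decimal commas and were entered as another unit in an automated check; read as numbers they sum to 1000000 in each culture. The lengthScaledTPM and DESeq2 steps of the methods need counts and lengths and were not repeated. TPM keep no depth, so no counting interval is given; 19355 to 19959 transcripts per culture were above 0.

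TPM were summed per symbol, genes with a mean of at least 1 TPM were kept (11960), cultures were scaled by factors of 0.960 to 1.02 (trimmed mean of M, each value weighted alike, trimming 30% on M and 5% on A per end), and log2(TPM + 1) was tested two-sided with limma 3.58.1 (empirical Bayes with trend) in R 4.3.3, with Benjamini-Hochberg adjustment over all genes tested. This scale understates differences of low genes. Levels in the text are unscaled. The labels call the cultures biological replicates; no pair shared identical values above 0. Same-numbered cultures did not deviate together (correlation -0.006), so replicate numbers were not used as a pairing.

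The 10 genes and all lists were chosen with earlier results of these data known. Named were all 10 genes, every other pathway gene that was called, and every tested gene of the same role as the 10; a few further genes (Dll3, Dlk1, Hes2, Hes3, Hes5, Hes7, Hey2, Heyl, Nrarp, Notch4, Psen2, Neurog3, Neurod1 and Nkx2-2) are given for their role and were chosen after their values were seen. Kat2b was matched through RefSeq synonyms; Maml3 and Insm1 were not analysed here, and results of a few further pathway genes are not reported here and are left out of the list and its counts. Sequences are from RefSeq (GRCr8), a build other than that of the files, and are used for their letters only. The steps were also run on simulated TPM with known changes in a small part of the genes. Far more genes were called here, so that run does not test the scaling used on these data. Alternatives were scaling, filter, pseudocount, trend, threshold, replicate block, 1 transcript per gene and each culture left out.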

Additional observations from a re-analysis of the deposited data

How the results depend on the processing

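Hes1 was called under each of the 14 alternatives run for it, with a log2 difference of 1.48 to 1.92 and an adjusted p of 0.00044 to 0.0368 in limma. Jag2 was called under 12 of 14, at 0.43 to 0.50, with an adjusted p of 0.0028 to 0.0673. It missed the threshold without either 3D culture, and leaving out any 1 culture gave a difference of 0.43 to 0.48. Rbpj was called under none of 14, and with each culture left out its difference ran from -0.10 to 0.16, negative without monolayer culture 2. The lone culture of a group is then assumed to vary like the other group.

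Of the 10 genes, 2 were called, 4 with no filter (3 higher and 1 lower) and 1 to 2 with a culture left out. Of the other pathway genes 23 were called, 12 with no filter, 1 at an adjusted p below 0.01, and 0 to 20 with a culture left out (20 without monolayer culture 1, 11 without monolayer culture 2). The 2 transcripts called became 0 to 2 with a culture left out, 2 without monolayer culture 1 and 0 in the other 3 cases, both having an unadjusted p below 0.05 in limma each time. Over all genes, 4541 were called, 4515 without monolayer culture 1, 3238 without monolayer culture 2, 136 without 3D culture 1 and 1037 without 3D culture 2, and the cause was not tested. A replicate block, with the pairing not borne out by the deviations, gave 2 of the 10 genes, 21 other pathway genes, 2 transcripts and 4814 genes in all. Of all genes tested, 38.0% were called in the main test, 21.4% with no filter and 40.3% with the block. At an adjusted p below 0.01 no share over all genes was taken. TPM give no depth, so the precision of genes below 1 TPM is unknown.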

Other observations

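Monolayer culture 2 held the lowest scaled level of the 4 cultures for 22 of the 55 Notch genes tested (40.0%), against 30.2% of all genes tested. This was noticed after the values of Mib1, Fbxw7 and Aak1 were seen.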
